A study of Mus musculus with 6 samples.

Results

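The genes described here encode 10 RNA-binding regulators of 4 families: CELF1, CELF2 and CELF4 of the CELF family, QKI, KHDRBS1 and KHDRBS3 of the STAR family, ELAVL1 and ELAVL2, and ESRP1 and ESRP2. They were chosen by gene symbol from the 58870 genes of the isoform tables, and they hold 132 of the 208621 isoforms listed. RNA-seq was carried out on 77-5 cells, a single clone of T-REx-293, a human embryonic kidney line, with a minigene of mouse Ntrk2 and a doxycycline-inducible Rbfox1. There were 3 samples without doxycycline (No Dox) and 3 samples exposed to doxycycline at 0.5 mg/ml, as the labels write the dose, for 48 h (Dox). The figure legends of the study write the dose in micrograms per ml, and the labels give mouse as the organism although the cells are human. Samples of both groups came from the same clone, so the minigene and the inducible construct were present in all of them. The effects of doxycycline itself and of Rbfox1 cannot be told apart in this design. No source used here states that replicates were separate cultures, so p-values measure only the spread between these samples, which may be technical.

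These families act on the same steps of RNA processing as the Rbfox proteins. CELF proteins bind GU-rich RNA and regulate splicing, translation and decay. STAR proteins bind RNA as dimers through a KH domain, and QKI is best known for myelin and for the making of circular RNA, while KHDRBS1 (Sam68) and KHDRBS3 (SLM2, or T-STAR) select exons in neurons and in dividing cells. ELAVL proteins, also called Hu proteins, bind AU-rich and U-rich RNA and stabilise messages, and ESRP proteins maintain the exon choices of epithelial cells. Many of these genes are themselves alternatively spliced, so both the level of each gene and the makeup of its isoforms were examined.

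Total expected counts, the RSEM estimates of fragments, ranged from 59822964 to 65774104 per sample, and the 10 genes took 0.0969 to 0.104% of them. RBFOX1 was examined first as a check of the labels. It rose from 7.53 ± 0.79 TPM (a transcript level scaled for length and for the sample total; SD, n = 3) to 188.3 ± 1.8 TPM in Dox, and the construct and the endogenous gene were not separated. Its paralog RBFOX2 fell from 48.3 ± 1.6 to 17.0 ± 0.88 TPM (edgeR log2 fold change -1.71 ± 0.03, adjusted p = 1.4e-16). The part of RBFOX2 in the changes of the genes below was not tested. The neurofilament genes NEFL and NEFM and the related INA, which HEK293 cells are known to express, summed to 91.3 to 93.7 TPM in the No Dox samples and 80.4 to 81.2 TPM in the Dox samples. NEFL was lower in Dox (65.5 and 52.5 TPM on average), INA did not pass (26.4 and 27.3 TPM) and NEFM, at 0.550 and 1.15 TPM, was higher. Markers of leukocytes, endothelium, hepatocytes and muscle each summed to less than 1 TPM in every sample. The neuronal markers SYN1, RBFOX3 and MAP2 summed to 3.66 to 4.20 TPM in No Dox and 8.72 to 9.07 TPM in Dox. Most of that difference was MAP2, at 1.55 TPM on average in No Dox and 6.13 TPM in Dox. SYN1, at 0.223 and 0.303 TPM with overlapping groups, was higher by counts (log2 fold change 0.78, edgeR adjusted p = 0.016). RBFOX3, at 2.09 and 2.45 TPM, did not pass (edgeR adjusted p = 0.96). The part of these markers in the changes of the genes below was not tested.

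Among the 10 genes, CELF2, ELAVL2 and KHDRBS1 rose, whereas KHDRBS3, ESRP2 and ELAVL1 fell. CELF2 rose 1.35-fold, KHDRBS3 fell by 40.1% and ESRP2 fell by 29.8%. With ESRP1, a gene near the limit of detection, 4 genes rose, 3 fell and 3 (CELF1, CELF4 and QKI) did not pass the test. Thus 7 of 10 changed, against 51.4% of the 18264 genes tested with edgeR at an adjusted p of 0.05. Over all genes 24.9% were higher and 26.5% were lower, and the median absolute log2 fold change was 0.31 for the 10 genes and 0.18 for all genes. Changes over 1.5-fold were limited to KHDRBS3 and ESRP1. With a test for a change of more than 1.2-fold, 3 of the 10 passed, namely CELF2, KHDRBS3 and ESRP2.

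**Figure D1:**
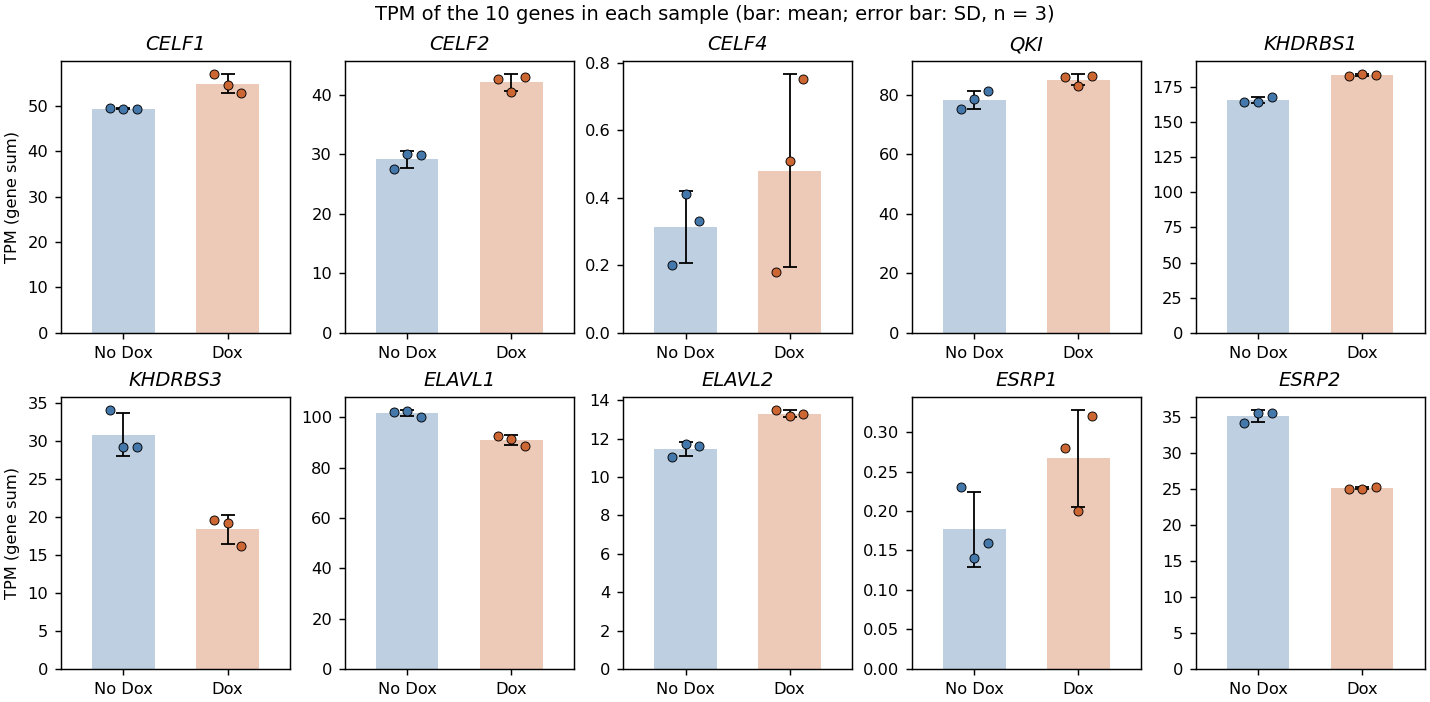
TPM, summed over isoforms, of each of the 10 genes by sample (points). Bars start at 0 and show the mean of No Dox and Dox, error bars are SD (n = 3), and each panel has its own axis. The groups do not overlap for 8 genes, and CELF4 and ESRP1 lie below 1 TPM in every sample.

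The first family examined was CELF. CELF2 (ENSG00000048740.18), which regulates splicing in heart, brain and T cells, was at 27.53, 30.12 and 29.86 TPM in the No Dox samples and at 42.71, 40.43 and 43.03 TPM in the Dox samples. All Dox samples lay above all No Dox samples. The log2 fold change of CELF2 was 0.43 ± 0.03 (SE), with an edgeR adjusted p of 8.9e-09. It stayed between 0.40 and 0.51 under every alternative run for this gene. In bulk RNA a difference in the RNA of each cell and a difference in the share of cells that express a gene cannot be told apart.

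CELF1 (ENSG00000149187.18), the widely expressed member that binds GU-rich elements and promotes decay, gave a different answer by counts and by TPM. Its TPM was 49.40, 49.31 and 49.18 in No Dox and 56.97, 54.62 and 52.80 in Dox, with no overlap. Its summed counts hardly differed, at a log2 fold change of 0.01 ± 0.03 and a 95% interval from -0.04 to 0.06 (edgeR adjusted p = 0.75). The mean effective length of CELF1 transcripts, as the isoform estimates weight it, was 4840 ± 65 bases in No Dox and 4498 ± 109 bases in Dox. On counts rebuilt from TPM, which take that length into account, CELF1 was higher by 0.12 on the log2 scale (edgeR adjusted p = 0.0090). CELF1 therefore passed on scales that use transcript length and not on summed counts. Its leading isoforms CELF1-201 and CELF1-204 were at 15.9 and 19.7 TPM in No Dox and at 16.0 and 21.0 TPM in Dox. CELF1-207 (393 bases), named for its values, went from 2.24 to 4.40 TPM. It had 63 counts in No Dox and 125 in Dox, of 31520 and 32628 for the gene. CELF1-214 (3650 bases), also named for its values, went from 4.83 to 3.35 TPM. The part of single isoforms in the TPM result was not tested.

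CELF4 (ENSG00000101489.20), a member mainly of neurons, was barely detected. Summed over 3 samples it had 53 counts in No Dox and 75 in Dox, and 0.18 to 0.75 TPM in single samples. Its groups overlapped, and the 95% interval of its log2 fold change ran from -0.20 to 1.11 (edgeR adjusted p = 0.23), so a difference was not detectable at this depth. The ratio of CELF2 to CELF1 in TPM was 0.592 ± 0.030 in No Dox and 0.768 ± 0.041 in Dox. The ratio was higher in all 3 Dox samples than in any No Dox sample, and the p of an exact permutation test was 0.1, which is the lowest possible with 3 samples per group.

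Within the STAR family, KHDRBS1 and KHDRBS3 moved in opposite directions. KHDRBS3 (ENSG00000131773.14) was at 34.04, 29.18 and 29.24 TPM in No Dox and at 19.64, 19.24 and 16.22 TPM in Dox. Every Dox sample was below every No Dox sample. The log2 fold change of KHDRBS3 was -0.74 ± 0.05 with an edgeR adjusted p of 5.7e-09, and among all genes tested 7.24% had a larger absolute log2 fold change. Leaving out single samples kept it between -0.76 and -0.70.

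KHDRBS1 (ENSG00000121774.18), which links signalling kinases to splicing, was the most abundant of the 10 genes. Its TPM was 164.55, 164.58 and 168.02 in No Dox and 182.49, 184.16 and 183.18 in Dox. The groups did not overlap, but the rise was small (8.29%, log2 fold change 0.11 ± 0.02, edgeR adjusted p = 0.00043) and did not pass the test for more than 1.2-fold. The ratio of KHDRBS3 to KHDRBS1 in TPM went from 0.186 ± 0.018 to 0.10 ± 0.01 (exact permutation p = 0.1). This ratio was lower in each Dox sample than in any No Dox sample.

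QKI (ENSG00000112531.17) showed little change in total. Its TPM was 75.25, 78.65 and 81.33 in No Dox and 85.98, 83.10 and 86.56 in Dox, without overlap, whereas its summed counts gave a log2 fold change of -0.01 ± 0.03 with a 95% interval from -0.07 to 0.04 (edgeR adjusted p = 0.69). As for CELF1, the mean effective length of QKI transcripts was shorter in Dox, at 2686 ± 32 bases against 2878 ± 88 bases. On counts rebuilt from TPM the sign turned and QKI passed narrowly (log2 fold change 0.09, edgeR adjusted p = 0.045), and with library size alone as the scale it was 0.03. No direction is therefore given for QKI as a gene.

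ELAVL1 and ELAVL2 also moved apart. ELAVL1 (ENSG00000066044.15), or HuR, the ubiquitous stabiliser of AU-rich messages, was at 102.14, 102.55 and 100.29 TPM in No Dox and at 92.61, 91.44 and 88.61 TPM in Dox. ELAVL2 (ENSG00000107105.15), or HuB, its neuronal and germ line paralog, was at 11.05, 11.72 and 11.61 TPM in No Dox and at 13.48, 13.15 and 13.26 TPM in Dox. Neither gene had overlapping groups. ELAVL1 fell by 11.8% (log2 fold change -0.18 ± 0.03, edgeR adjusted p = 2.1e-05). ELAVL2 rose by 11.2% (log2 fold change 0.15 ± 0.04, edgeR adjusted p = 0.0025). Neither change passed the test for more than 1.2-fold. In TPM, ELAVL2 amounted to 0.113 ± 0.004 of ELAVL1 in No Dox and 0.146 ± 0.003 in Dox (exact permutation p = 0.1).

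ESRP2 (ENSG00000103067.13) was the main epithelial splicing regulator in these cells and it fell. Its TPM was 34.18, 35.64 and 35.66 in No Dox and 25.02, 25.10 and 25.29 in Dox. These groups were far apart relative to their spread, with a log2 fold change of -0.51 ± 0.04 and an edgeR adjusted p of 6.4e-09. ESRP1 (ENSG00000104413.17), its paralog, had 21, 20 and 13.01 counts in the No Dox samples and 36.01, 25 and 41 counts in the Dox samples. By counts the groups of ESRP1 did not overlap, but its TPM, at 0.14 to 0.23 in No Dox samples and 0.20 to 0.32 in Dox samples, did. Its log2 fold change was 0.87 ± 0.28 (edgeR adjusted p = 0.015). The call for ESRP1 was lost with DESeq2 (adjusted p = 0.056), and in edgeR without No Dox replicate 3 or without Dox replicate 3 (adjusted p = 0.072 in both cases). ESRP1 amounted to 0.0050 ± 0.0015 of ESRP2 in No Dox and 0.0106 ± 0.0024 in Dox.

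Epithelial markers were examined beside the ESRP genes. Of 10 markers fixed as a list, 8 were tested, 3 fell (EPCAM, KRT8 and KRT18) and none rose, and 5 were above 1 TPM in a group. Their summed level was 481.1 to 487.4 TPM in No Dox and 399.6 to 410.2 TPM in Dox. GRHL2 and OVOL1, transcription factors that define epithelia, were at or below 0.0867 TPM on average in both groups. Of 8 mesenchymal markers, CDH2 and ZEB2 rose, VIM and FN1 fell and the other 4 did not pass, with a summed level of 775.2 to 784.6 TPM in No Dox and 747.7 to 765.7 TPM in Dox. Their part in the fall of ESRP2 was not tested.

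In No Dox the order of mean TPM, which is scaled for length, was KHDRBS1, ELAVL1, QKI, CELF1, ESRP2, KHDRBS3, CELF2, ELAVL2, CELF4 and ESRP1. In Dox CELF2 moved from rank 7 to rank 5, above ESRP2 and KHDRBS3, and the order of the others stayed. Neighbours with overlapping samples were KHDRBS3 and CELF2 in No Dox, and CELF4 and ESRP1 in both groups. ESRP2 and KHDRBS3 lay next to each other in No Dox (lowest ESRP2 sample 34.18 TPM, highest KHDRBS3 sample 34.04 TPM). Counted by TPM, 8 of the 10 genes had groups without overlap, 5 higher and 3 lower in Dox, against 50.3% of all genes tested (28.1% higher and 22.2% lower). The 2 genes that TPM adds on the higher side are CELF1 and QKI, and ESRP1 is not among the 8.

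**Figure D2:**
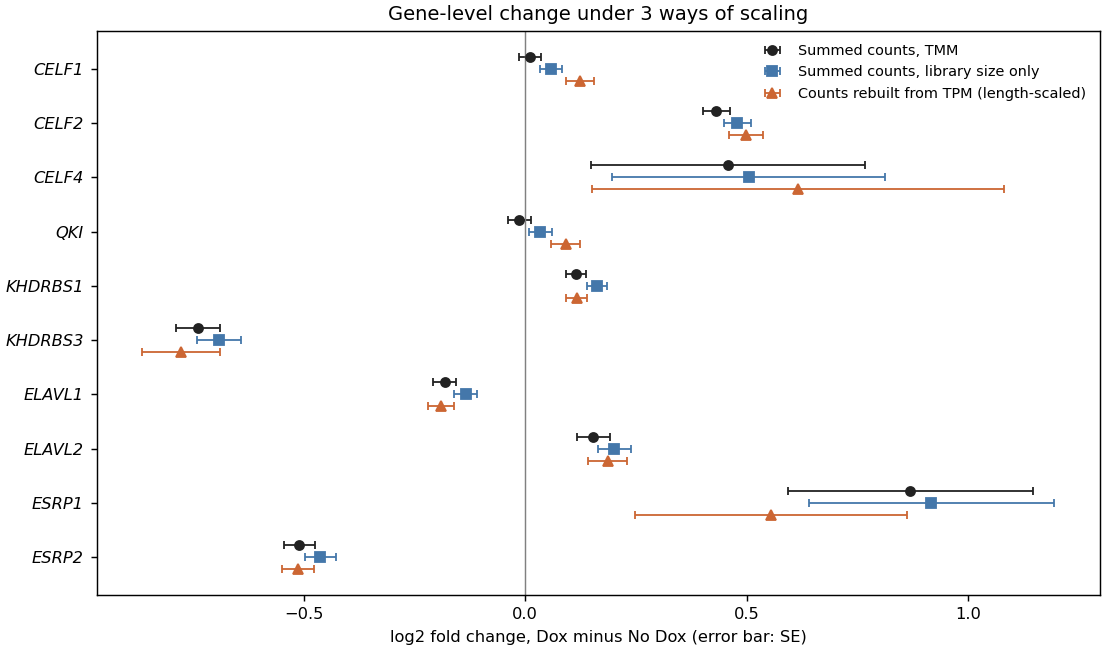
Log2 fold change of each gene (Dox minus No Dox; error bar, SE) from edgeR on summed counts with TMM factors, on summed counts with library size only and on counts rebuilt from TPM. CELF2, KHDRBS3, ELAVL1, ELAVL2, KHDRBS1 and ESRP2 keep their side of 0 on all 3 scales, while QKI lies at -0.01, 0.03 and 0.09.

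The genes whose profiles were most like KHDRBS3, the gene with the largest change among those of at least 5 TPM, were FKBP4, NR2C2AP and TWNK, with Pearson correlations of log2 CPM of 0.9997, 0.9995 and 0.9994 across the 6 samples. Of 11419 genes compared, 399 had a correlation over 0.99. These 6 points share the same libraries and fall into 2 groups.

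The next comparison asked whether the isoforms of each gene changed. Of the 132 isoforms, 40 were at 0 in all samples and 54 passed the filter on low counts. By limma-voom, 9 of the 54 rose, 10 fell and 35 did not pass. That is 19 of 54, against 12.6% of all 72438 isoforms tested (6.19% higher and 6.44% lower). QKI had 7 changed isoforms of 9 tested and ELAVL2 had 3 of 5. CELF2, KHDRBS3, ELAVL1 and KHDRBS1 had 2 each, of 7, 7, 3 and 4 tested, and ESRP2 had 1 of 8. None passed for CELF1 (8 tested), ESRP1 (2 tested) and CELF4 (1 tested). Of the 19 calls, 12 kept their direction and their side of the threshold under all alternatives run. Reads in shared exons are apportioned by the RSEM model, so isoform values of a gene are estimates that depend on each other.

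**Figure D3:**
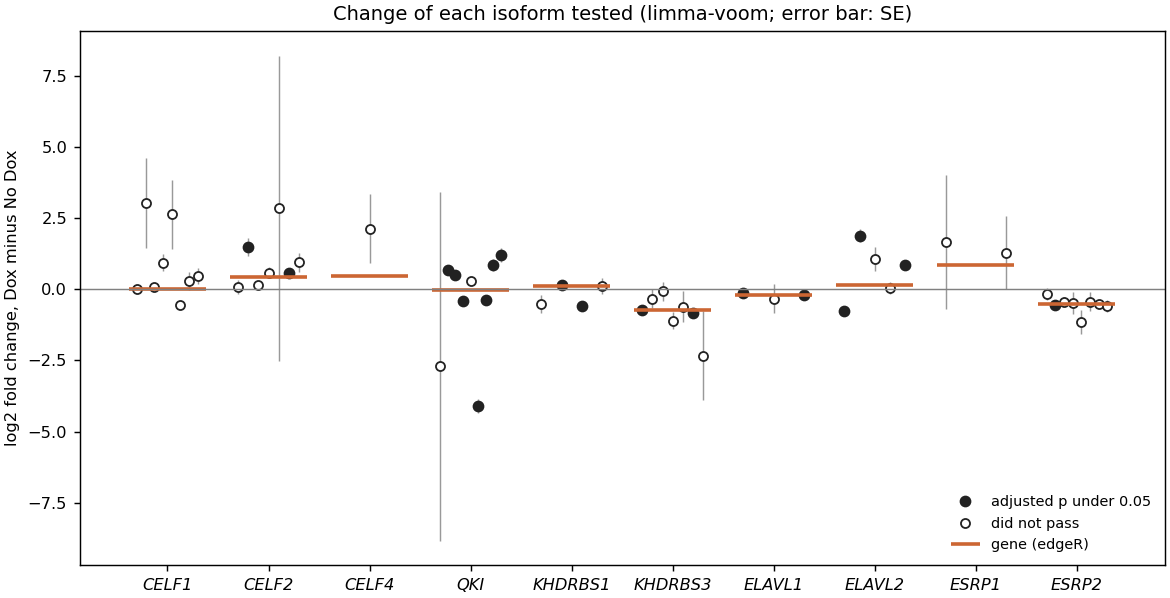
Log2 fold change (Dox minus No Dox; error bar, SE) of the 54 isoforms tested by limma-voom, grouped by gene; filled points passed at an adjusted p of 0.05 and the horizontal line is the gene's own change by edgeR. The QKI isoforms lie on both sides of their gene's line, with QKI-207 at -4.10, whereas most ESRP2 isoforms lie near theirs.

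QKI produced the widest set of isoform changes while its summed counts stayed level. The isoforms QKI-202, QKI-203, QKI-212 and QKI-217 rose, and QKI-204, QKI-207 and QKI-210 fell. QKI-207 (ENST00000453779.6, 5685 bases) had 531.85, 486.68 and 410.75 counts in the No Dox samples and 24.24, 24.57 and 34.36 counts in the Dox samples. This was the largest change of any of the 19 isoforms, a log2 fold change of -4.10 ± 0.25 (limma adjusted p = 0.00027). QKI-207 was a minor form before doxycycline, however, at 2.51 ± 0.37% of the TPM of the gene, and it was at 0.13 ± 0.03% in Dox.

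QKI-203 and QKI-204, which together took most of the counts of the gene, moved in opposite directions. QKI-203 (ENST00000361752.8, 9384 bases) was at 6.07, 6.67 and 7.04 TPM in No Dox and at 9.72, 9.66 and 8.89 TPM in Dox. QKI-204 (ENST00000361758.8, 6085 bases) was at 17.44, 17.45 and 16.11 TPM in No Dox and at 12.61, 12.33 and 13.99 TPM in Dox. The groups overlapped for neither. QKI-203 rose by 0.51 ± 0.06 on the log2 scale (limma adjusted p = 0.0034), and QKI-204 changed by -0.40 ± 0.06 (limma adjusted p = 0.0081). By counts, which grow with length, QKI-203 took 26.9% of QKI in No Dox and 37.8% in Dox, while QKI-204 took 44.6 and 33.5%. The ratio of QKI-203 to QKI-204 in TPM was 0.389 ± 0.045 in No Dox and 0.730 ± 0.082 in Dox, and every Dox sample was above every No Dox sample (exact permutation p = 0.1). QKI-204 remained the higher of the pair in TPM in all samples.

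The short isoforms QKI-202 and QKI-210 also moved in opposite directions. QKI-202 (1063 bases) made up 23.25, 29.19 and 26.25% of the gene in No Dox and 41.34, 38.82 and 35.86% in Dox. QKI-210 (1106 bases) made up 24.50, 26.69 and 23.19% in No Dox and 16.85, 19.14 and 17.66% in Dox. They were thus about equal in No Dox, with a TPM ratio of 1.06 ± 0.10, and QKI-202 was the higher of the pair in Dox, with a ratio of 2.17 ± 0.24 (exact permutation p = 0.1). These percentages are shares of TPM. By counts QKI-202 took 8.06% of QKI in No Dox and 12.7% in Dox, and QKI-210 took 7.98 and 6.14%. QKI-202 rose by 0.67 ± 0.11 on the log2 scale (limma adjusted p = 0.0091). QKI-210 changed by -0.36 ± 0.08 (limma adjusted p = 0.034), a call that was lost when any 1 of the 6 samples was left out (adjusted p from 0.070 to 0.11).

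QKI-212 (1097 bases) went from 6.18 ± 1.5 to 10.2 ± 0.92% and QKI-217 (846 bases) from 1.88 ± 0.47 to 4.05 ± 0.64%. Their log2 fold changes were 0.87 ± 0.21 and 1.22 ± 0.24 (limma adjusted p = 0.044 and 0.020). The call for QKI-212 was lost without any 1 sample other than No Dox replicate 3 and that for QKI-217 when replicate 2 or 3 of either group was left out, with adjusted p of up to 0.12 and 0.077. The 4 isoforms that rose together made up 42.7 ± 4.0% of QKI in No Dox and 64.0 ± 2.0% in Dox, and the 3 that fell made up 49.0 ± 3.4 and 33.2 ± 1.4%. As these sets were formed by direction, the sums are a description. One more isoform, QKI-215, had too few samples above the count minimum to be tested and is named because of its values. It held 8.2, 0.65 and 8.5% in the No Dox samples and 0 to 0.53% in the Dox samples.

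ELAVL2 gave the largest shift in isoform percentage. Its leading isoform in No Dox, ELAVL2-201 (3763 bases), made up 46.96, 55.56 and 54.30% of the gene in No Dox and 29.81, 29.38 and 21.28% in Dox. ELAVL2-208 (3789 bases) made up 28.30, 20.98 and 24.44% in No Dox and 35.32, 36.77 and 44.77% in Dox, and became the leading isoform in every Dox sample. The ratio of ELAVL2-208 to ELAVL2-201 in TPM was 0.477 ± 0.115 in No Dox and 1.51 ± 0.51 in Dox.

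By limma-voom ELAVL2-201 changed by -0.77 ± 0.15 and ELAVL2-208 by 0.87 ± 0.14 on the log2 scale (adjusted p = 0.022 and 0.0090). A minor form, ELAVL2-202 (3691 bases), rose from 4.46 ± 1.2 to 14.1 ± 1.8% (log2 fold change 1.89 ± 0.23, limma adjusted p = 0.0032). The call for ELAVL2-201 was lost when No Dox replicate 2, No Dox replicate 3 or Dox replicate 2 was left out (adjusted p from 0.052 to 0.070). ELAVL2-204 was level, at 14.3 ± 3.2 and 12.8 ± 2.6%. The mean effective length of the gene was 3542 ± 25 in No Dox and 3475 ± 47 bases in Dox.

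**Figure D4:**
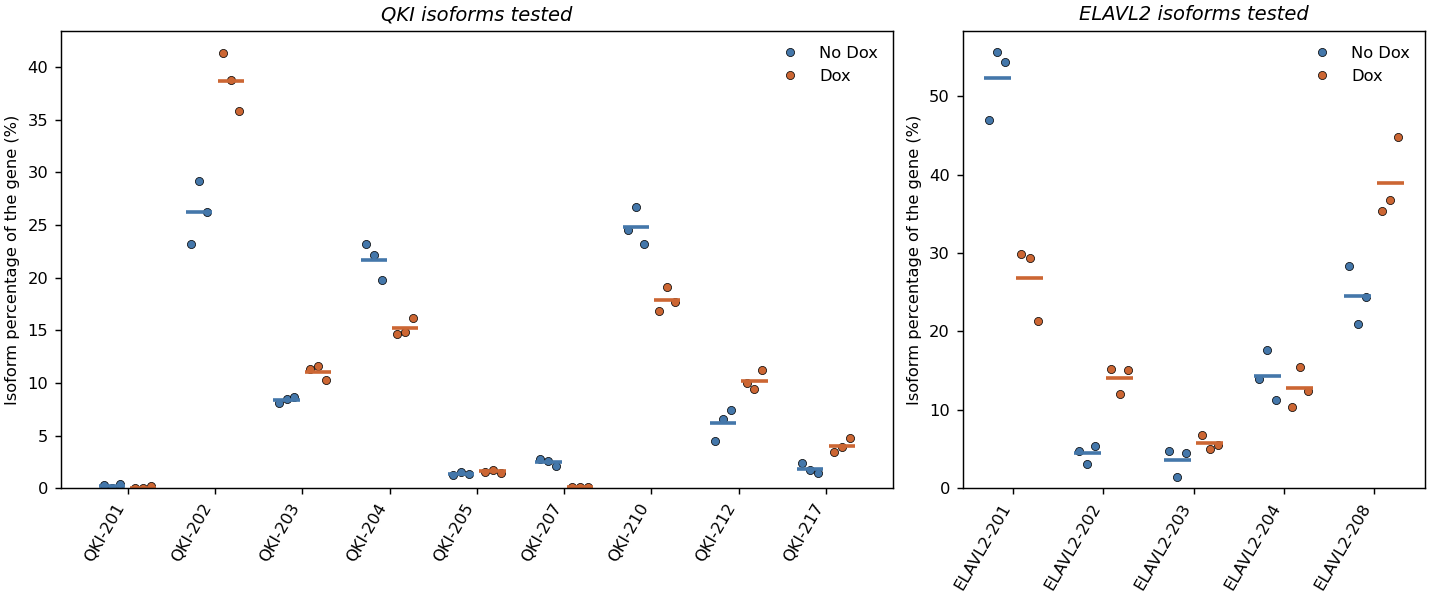
Isoform percentage, the share of the gene's TPM, of each tested isoform of QKI and ELAVL2 by sample (points, with a line at the mean of each group). QKI-202 and ELAVL2-208 are higher in all Dox samples than in any No Dox sample, and QKI-204, QKI-207, QKI-210 and ELAVL2-201 are lower.

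The estimates for the isoforms of CELF2 changed by different amounts. The call for a change in isoform usage, described below, was not stable for this gene. It was lost with edgeR diffSpliceDGE (adjusted p = 0.66) and without No Dox replicate 2 or 3 (limma diffSplice adjusted p = 0.16 and 0.18). CELF2-209 (5538 bases), the main form, was at 13.25, 14.01 and 14.05 TPM in No Dox and at 20.48, 20.88 and 20.98 TPM in Dox. CELF2-205 (7982 bases) was at 7.50, 8.26 and 8.32 TPM in No Dox and at 8.48, 9.0 and 9.29 TPM in Dox. CELF2-209 rose by 0.58 ± 0.03 on the log2 scale (limma adjusted p = 0.00020), and CELF2-205 did not pass (0.14 ± 0.06, limma adjusted p = 0.17). The percentage of CELF2-205 was lower, 21.2 ± 1.2% in Dox against 27.5 ± 0.31% in No Dox, and the ratio of CELF2-209 to CELF2-205 was 2.33 ± 0.08 against 1.72 ± 0.04. A minor form, CELF2-203, rose by 1.5 ± 0.32 on the log2 scale (limma adjusted p = 0.027), a call lost when No Dox replicate 2, No Dox replicate 3, Dox replicate 1 or Dox replicate 3 was left out (adjusted p from 0.073 to 0.096). CELF2-206 was at 17.2 ± 3.1 and 17.9 ± 2.6%.

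KHDRBS1 is nearly a single-isoform gene in these cells. KHDRBS1-202 (2713 bases) made up 95.0 ± 0.30% of it in No Dox and 96.5 ± 0.38% in Dox and rose with the gene (log2 fold change 0.16 ± 0.01, limma adjusted p = 0.00047). KHDRBS1-203 (1989 bases) was at 6.03, 5.33 and 5.06 TPM in No Dox and at 3.57, 3.69 and 3.64 TPM in Dox. Its percentage went from 3.31 ± 0.34 to 1.99 ± 0.03%, and its log2 fold change was -0.60 ± 0.11 (limma adjusted p = 0.015, and 0.054 to 0.060 without any 1 Dox sample).

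For KHDRBS3, ELAVL1 and ESRP2 the isoforms that changed moved with the gene. KHDRBS3-201 and KHDRBS3-211 fell by 0.71 and 0.84 on the log2 scale, close to the -0.74 of the gene, and held 30.7 ± 2.3 and 30.4 ± 3.1% of it in No Dox and 31.9 ± 4.3 and 29.0 ± 5.9% in Dox. ELAVL1-205 and ELAVL1-201 fell by 0.18 and 0.14, and ELAVL1-205 (1473 bases) made up 78.2 ± 0.41% of the TPM of the gene in No Dox and 77.8 ± 0.14% in Dox. By counts, which grow with length, ELAVL1-201 (6054 bases) was the larger. It took 54.6% in No Dox and 55.4% in Dox, and ELAVL1-205 took 45.1 and 44.3%. The call for ELAVL1-201 was lost without any 1 sample other than Dox replicate 1 (adjusted p from 0.053 to 0.080), and on log2(TPM + 0.1) by limma (adjusted p = 0.083). ESRP2-202 fell by 0.57 on the log2 scale at 23.2 ± 1.6 and 22.1 ± 0.86% of the gene. ESRP2-210 was the leading ESRP2 isoform by mean percentage, at 27.4 ± 1.2 and 27.4 ± 6.0%, and did not pass (log2 fold change -0.51 ± 0.14, limma adjusted p = 0.056).

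For CELF1 no isoform passed, and the leading forms CELF1-204 and CELF1-201 were at 40.0 ± 1.9 and 32.2 ± 1.7% in No Dox and at 38.3 ± 1.2 and 29.2 ± 0.44% in Dox. The percentages of CELF4-204, ESRP1-203 and ESRP1-207, which rest on fewer than 26 counts in any sample, ranged from 0 to 91.1%. Nothing can be read from them at this depth.

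Isoform usage was then tested with limma diffSplice, that is, the change of each isoform relative to the other isoforms of the gene. Of the 9 genes that could be tested, 5 passed, against 27.5% of all 12328 genes tested, with adjusted p of 4.9e-08 for QKI, 2.6e-06 for ELAVL2, 0.0013 for KHDRBS1, 0.014 for CELF1 and 0.015 for CELF2. ELAVL1, KHDRBS3, ESRP1 and ESRP2 did not pass, and CELF4 had 1 isoform past the filter. On simulated counts this test called more unchanged genes than its threshold allows. With edgeR diffSpliceDGE, QKI and ELAVL2 alone passed among 8 genes tested, against 10% of all 12307 genes tested. The same 2 genes were left when a change of at least 10 points in isoform percentage was asked for. The call for CELF1 came from CELF1-203, named here for that reason, which had 105.93, 120.42 and 0 counts in No Dox and 197.11, 160.50 and 119.75 counts in Dox. It was lost without Dox replicate 1 or Dox replicate 2 (adjusted p = 0.092 and 0.054), and the call for CELF2 without No Dox replicate 2 or 3 (adjusted p = 0.16 and 0.18). Usage and gene level both passed for CELF2, KHDRBS1 and ELAVL2, usage alone passed for QKI and CELF1, gene level alone for KHDRBS3, ELAVL1, ESRP1 and ESRP2, and neither for CELF4.

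The remaining members of the families and genes known as targets of these proteins were read out as lists. Of 7 further genes (CELF3, CELF5, CELF6, KHDRBS2, ELAVL3, ELAVL4 and SF1, a splicing factor related to the STAR proteins), 4 were tested, 1 rose, 1 fell and 2 did not pass. The 2 that passed are named because of that result and lie below 1 TPM. CELF6 rose from 0.173 ± 0.023 to 0.350 ± 0.053 TPM and CELF3 fell from 0.370 ± 0.040 to 0.263 ± 0.051 TPM. SF1 was abundant and level, at 188.0 ± 1.5 and 188.2 ± 11.1 TPM (edgeR adjusted p = 0.059). The neuronal KHDRBS2, ELAVL3 and ELAVL4 were listed at 0 or below 0.1 TPM on average and were not tested.

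Over the target lists together, 48 of 54 genes were tested, 16 rose, 17 fell and 15 did not pass, with a median log2 fold change of -0.04 against 0.00 for all genes. These directions lean on the scaling. With library size only, 17 rose and 8 fell, and over all genes the split went from 4544 higher and 4841 lower to 5682 higher and 3753 lower, as the median log2 fold change moved to 0.05. Usage passed in 23 of 46 target genes by diffSplice (27.5% of all genes tested) and in 19 of 46 by diffSpliceDGE (10% of all genes tested). These lists were drawn from background knowledge, but with earlier results of these data known, so their shares beside those of all genes are a description. The lists say nothing of which protein acts on a gene in these cells, and several targets are shared with other splicing regulators.

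Of the 7 CELF targets tested, 4 rose, 1 fell and 2 did not pass, against 24.9% higher and 26.5% lower over all genes. The 1 that fell by counts, ACTN1, was level in TPM, at 36.7 ± 0.89 in No Dox and 36.9 ± 2.6 in Dox. Usage passed in 6 of 7 by each tool, against 27.5% of all genes by diffSplice and 10% by diffSpliceDGE, with MAPT, named for that result, passing by diffSplice alone and MTMR1 by diffSpliceDGE alone. MEF2A, a transcription factor of muscle and neurons, had its isoform MEF2A-205 at 4.47 ± 1.1% in No Dox and 45.4 ± 4.7% in Dox. NF1-202 of the neurofibromin gene went from 61.2 ± 3.7 to 28.2 ± 3.9% while the gene itself did not pass (log2 fold change -0.04 ± 0.02, edgeR adjusted p = 0.21). APP-204 of the amyloid precursor gene went from 37.7 ± 1.1 to 17.3 ± 0.38%. MTMR1, a phosphoinositide phosphatase gene, was higher in Dox, at 43.2 ± 1.7 TPM against 32.6 ± 1.7 TPM in No Dox (edgeR log2 fold change 0.36 ± 0.03, adjusted p = 1.9e-08).

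Of the 11 ESRP targets, 4 rose, 4 fell and 3 did not pass (4 rose and 1 fell with library size only), beside 24.9% and 26.5% of all genes. These falls are of summed counts. FGFR2, CTNND1 and SCRIB, named for that reason, fell by counts but had higher mean TPM in Dox. They went from 18.4 to 21.1, 32.9 to 34.5 and 76.5 to 78.8 TPM, so no direction is given for them. CD44 was lower on both scales (7.39 and 6.64 TPM, with overlapping groups). Usage passed in 8 of 11 by diffSplice and in 7 by diffSpliceDGE, beside 27.5% and 10% of all genes. FGFR2, CD44 and RALGPS2 did not pass in usage (diffSplice adjusted p = 0.13, 0.22 and 0.89). CTNND1-223 of the p120 catenin gene made up 27.5 ± 4.1% in No Dox and was listed at 0 in all Dox samples. EXOC7-216 of an exocyst subunit gene went from 31.7 ± 1.4 to 43.1 ± 2.1%, and ENAH-209 of the actin regulator gene ENAH from 6.62 ± 0.39 to 12.0 ± 0.74%. MAGI1-208 of a junction scaffold gene went from 0.647 ± 0.952 to 6.83 ± 1.6%. Beside the same shares of all genes, usage by diffSplice passed in 3 of 7 QKI targets, 2 of 8 KHDRBS targets and 5 of 16 ELAVL targets, and by diffSpliceDGE in 2, 0 and 5.

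Of 8 KHDRBS targets tested, 1 rose and 5 fell (2 and 2 with library size only), where 24.9% of all genes rose and 26.5% fell. The same shares apply to the lists that follow. MTOR fell from 60.7 ± 1.9 to 51.7 ± 0.97 TPM and NRXN3, a synaptic adhesion gene whose exon choice KHDRBS proteins control in mouse brain, rose from 7.63 ± 0.18 to 9.48 ± 0.12 TPM (log2 fold changes -0.33 and 0.29, edgeR adjusted p = 4.5e-08 and 1.5e-05). Isoform usage passed for neither MTOR nor NRXN3 (diffSplice adjusted p = 0.10 and 0.54). SRSF1, an SR protein gene, was at 383.4 ± 4.5 and 353.0 ± 8.6 TPM. SMN2 shares most of its sequence with SMN1 and its values are therefore uncertain. Of 18 ELAVL targets 6 rose and 6 fell (6 and 3 with library size only). The growth regulator gene MYC had the smallest adjusted p of this list in the gene test, at 127.9 ± 3.6 TPM in No Dox and 59.3 ± 1.4 TPM in Dox (edgeR log2 fold change -1.11 ± 0.03, adjusted p = 1.4e-14). Both cell cycle inhibitor genes rose, CDKN1A (p21) by 0.59 ± 0.03 on the log2 scale (edgeR adjusted p = 1.5e-10) and CDKN1B (p27), which was at 42.4 ± 0.62 TPM in No Dox and rose to 59.9 ± 1.8 TPM (edgeR log2 fold change 0.46 ± 0.03, adjusted p = 3.7e-09). CDKN1B is also in the QKI list, where 2 of 8 genes rose and 3 fell (2 and 1 with library size only). In the QKI list, HNRNPA1-202 of an hnRNP gene with many pseudogenes was at 34.2 ± 0.73% in No Dox and 45.9 ± 0.27% in Dox. MACF1-201 of a cytoskeletal linker gene was at 3.43 ± 0.08 and 15.4 ± 0.31%, and the usage of both genes passed with both tools. NUMB-204 of the cell fate gene NUMB was at 6.98 ± 2.1% in No Dox and 21.1 ± 7.8% in Dox, and its usage call was lost with diffSpliceDGE.

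**Figure D5:**
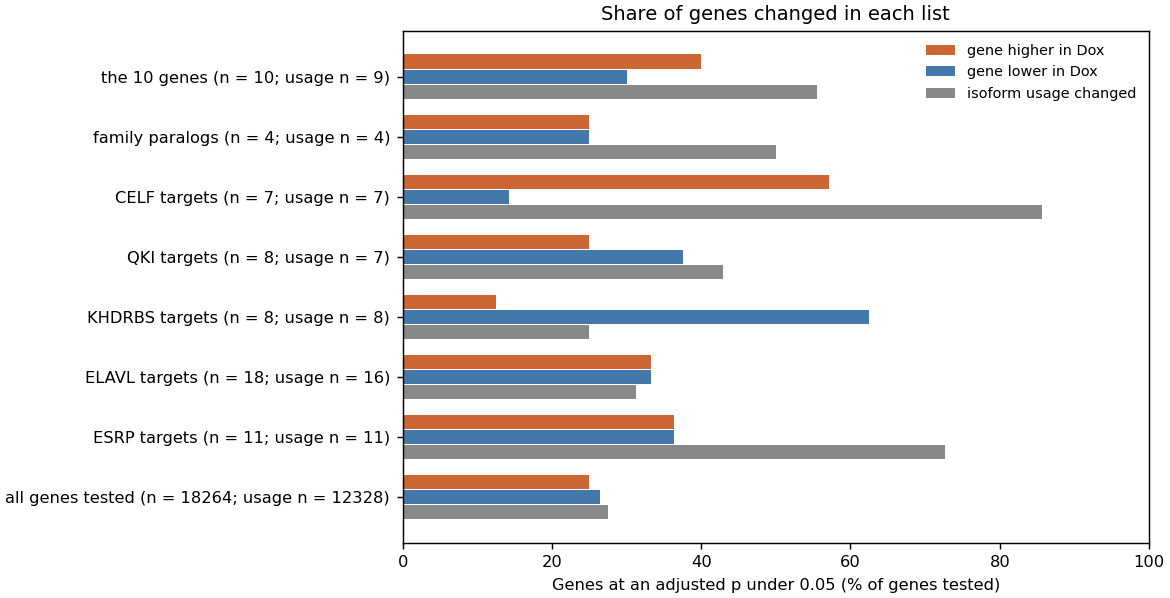
Percent of the genes tested that were higher in Dox or lower in Dox by edgeR, or changed in isoform usage by diffSplice, for the 10 genes, the further family members, the 5 target lists and all genes tested (n beside each name). The usage bars of the CELF and ESRP targets, 6 of 7 and 8 of 11 genes, are the longest, and the bar of all genes is at 27.5%.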

How the data were processed

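Per the labels and the study's methods, the libraries were of stranded mRNA, cutadapt was used for trimming, STAR for alignment to GRCh38 and RSEM for isoform levels. For these tools the versions, and for RSEM the strand setting, were not given in the sources used here. Of the tables, the deposited expected counts are estimated fragments per isoform, not normalized. The deposited TPM values are scaled by RSEM for effective length and for the sample total, and the deposited FPKM values were not used. The deposited isoform percentage (percent) is the share of an isoform in the TPM of its gene.

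Rows were taken by gene symbol. Gene sums of expected counts, rounded to whole numbers, were tested with edgeR 4.0.16 (filterByExpr, TMM, glmQLFit and glmQLFTest). Isoforms were tested with limma-voom and diffSplice (limma 3.58.1). Tests were two-sided, with Benjamini-Hochberg adjustment over all features tested and a threshold of 0.05, in R 4.3.3. SEs of gene log2 fold changes were derived from the quasi-likelihood F statistic. Exact permutation tests compared TPM and ratios. On simulated counts, drawn from the means and dispersions of these samples, the gene test and more so the usage test made more false calls than the threshold allows, and the isoform test made few and missed most changes. The simulated features were drawn independently of each other and few of them were changed, so error rates in the data may differ.

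Named were the 10 genes, their tested isoforms with at least 10 percent of a gene or an adjusted p under 0.05, and up to 4 genes per list with the smallest adjusted p among genes with at least 5 TPM. The genes, lists and tests were chosen with earlier results of these data known. Alternatives were DESeq2 1.42.0, other scalings, filters and units, a minimum change, a replicate block and leaving out each sample. Sequences and coordinates were not used here. The paralogs share sequence, and their reads may be divided by RSEM. Further marker lists are not reported here.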

Additional observations from a re-analysis of the deposited data

How the results depend on the processing

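With a minimum fold of 1.2, 3 of the 10 genes changed instead of 7, and the other alternatives gave 6 to 8 (6 to 7 when 1 sample was left out). Changed isoforms numbered 17 to 25, and 13 to 16 without 1 sample. Usage passed in 2 genes with diffSpliceDGE, in 2 where a shift of 10 points or more was required, in 3 with isoforms of at least 10 percent, and in 4 to 5 without 1 sample. The log2 fold change of QKI turned to 0.12 on log2(TPM + 1) by limma (adjusted p = 0.027), to 0.091 on counts rebuilt from TPM and to 0.034 with library size only, and ranged from -0.031 to 0.00094 without 1 sample. CELF1 was at -0.0033 with no filter and from -0.0012 to 0.024 without 1 sample, and on log2(TPM + 1) it passed at 0.15 (limma adjusted p = 0.0094). ESRP1 also missed the threshold on log2(TPM + 1), on counts rebuilt from TPM and with the minimum fold (adjusted p = 0.21, 0.18 and 0.081 by limma and edgeR).

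Isoforms whose sign turned had not passed. CELF1-201 was at -0.00087 with a filter of at least 1 count, and without 1 sample it ranged from -0.023 to 0.039, ESRP1-207 from -0.092 to 1.75, ESRP2-201 from -0.27 to 0.043 and ELAVL2-204 from -0.11 to 0.21. The relative log2 fold change of the leading usage isoform ranged from -2.83 to 0.55 for KHDRBS3 and from -3.51 to 0.87 for ESRP1. QKI-212 also missed the threshold with edgeR, on log2(TPM + 0.1), with the filter of at least 1 count and with the block, QKI-210 with that filter (adjusted p = 0.065) and QKI-217 with the block (adjusted p = 0.062), all by edgeR or limma. The cause of these differences was not tested.

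The deviations of samples with equal replicate numbers correlated at 0.041, 0.028 and 0.057, and those with unequal numbers at -0.038 to -0.0024. These correlations are small and do not decide whether samples were paired. Over all genes, 9806 passed by edgeR with the replicate number as a block and 9385 without it. With the replicate number as a block, 7 genes, 18 isoforms and 5 usage calls were obtained, and the usage value of KHDRBS3 was 0.083. The low counts of CELF4 and ESRP1 limit what depth can show.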
